A study of Homo sapiens with 18 samples.

Results

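In SJSA-1 cells, 228 genes were lowered at least 2-fold by the MDM2 antagonist Nutlin. Within the limits given below, they stood near their control level under the CDK4/6 inhibitor Palbociclib (PD0332991). They were not, or only slightly, below this Palbociclib level when Nutlin was added with Palbociclib still present. They were 228 of the 1339 genes that Nutlin lowered by that much, and of 23368 genes in the tables. The members were chosen on their measured values. In counts scaled to the total reads on genes (counts per 1e6 reads, CPM), group means were put on the scale log2(mean + 0.5). A member had a mean of at least 2 CPM in DMSO, a Nutlin minus DMSO difference of -1 or below, a PD30 minus DMSO difference under 0.5 in size, and an N+PD30 minus PD30 difference of -0.3 or above. A limit of 300 genes was not reached. The values in DMSO, Nutlin, PD30 and N+PD30 therefore describe how the genes were chosen and were not tested.

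Nutlin occupies a binding pocket of the ubiquitin ligase MDM2 and sets off a transcriptional stress response in which MDM2 itself and CDKN1A (p21) are induced. Genes that fall in this response are mostly reached indirectly. The best known route runs through CDKN1A, which keeps the retinoblastoma family active and E2F-dependent and DREAM-dependent cell cycle genes off. Palbociclib blocks CDK4 and CDK6 and acts on the same retinoblastoma step. The genes described here differ from that group by construction, because a gene that Palbociclib alone moved by 0.5 or more on the log2 scale was left out.

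SJSA-1 is an established human osteosarcoma line, with amplified MDM2 and CDK4, and all samples came from it. RNA was sequenced in 6 groups of 3 replicates. The groups were the solvent control DMSO, Nutlin at 20 µM for 6 h (Nutlin), PD0332991 at 10 µM for 24 h (PD24) or 30 h (PD30), and Nutlin combined with either (N+PD24, N+PD30). In the study's scheme of this sequencing experiment, PD0332991 ended in the 24 h schedule when the 6 h of Nutlin began, and it continued alongside Nutlin in the 30 h schedule. Libraries held between 12704845 and 40231041 reads on genes (median 29608936), the fewest in N+PD30 replicate 1. Of 9 osteoblast-type markers 6 averaged at least 1 CPM, whereas SP7, BGLAP and IBSP were at or near 0, with group means of at most 0.131 CPM. The 5 blood markers summed to between 1.18 and 3.66 CPM and the 4 endothelial markers to between 3.45 and 18.3. The 5 epithelial markers summed to between 108 and 264 CPM, mostly from the keratin KRT18 (211 CPM in DMSO), with EPCAM at 0.671 in DMSO. MDM2 had a mean of 2589 CPM in DMSO and 22914 in Nutlin, and it stood at 1382 in PD24, 11183 in N+PD24, 1330 in PD30 and 7293 in N+PD30. The treatments were thus visible in every Nutlin group. These are bulk measurements, so fewer expressing cells and less RNA per cell cannot be told apart.

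The members were mostly of moderate abundance, with DMSO means from 2.12 to 257 CPM (median 16.4). Nutlin minus DMSO had a median of -1.21 and reached -2.76. In N+PD30 minus PD30 the median was -0.14, with a range from -0.30 to 0.77 that the rule cut at its lower end. PD30 minus DMSO ran from -0.50 to 0.48. Within these limits, all PD30 libraries still lay below all DMSO libraries in 53 members (23.25%) and above them in 43 (18.86%). The shares over all genes were not taken for this pair of groups. N+PD30 minus DMSO ran from -0.75 to 0.77 (median -0.14). This difference is the sum of PD30 minus DMSO and N+PD30 minus PD30, so the limits of the rule also bounded its lower end. It was below 0 in 151 members (66.2%), beside 56.5% of all genes with at least 2 CPM in DMSO. Library by library, the median member lay -1.32, -1.31 and -1.07 from the DMSO mean in the 3 Nutlin libraries. It lay at -0.21, -0.20 and -0.08 in the N+PD30 libraries and at -1.17, -1.19 and -0.98 in the N+PD24 libraries. The N+PD24 libraries thus sat with the Nutlin libraries, and the N+PD30 libraries with the controls. Every Nutlin library was below every DMSO library in 227 of 228 members, against 42.8% of the 13559 genes tested. The rule had set a limit on the difference of these group means, though not on single libraries, and the exception was MAP1S, named after its values were seen. Every N+PD30 library was below every PD30 library in 41 members (17.98%), compared with 28.1% of genes tested. The limit of -0.3 on this difference enters that count. Every N+PD30 library was above every PD30 library in 8 members, for which the share over all genes was not taken. Nutlin libraries were all below the N+PD30 libraries in 222 members (33.0% of genes tested), and N+PD24 libraries were so in 207 (31.9%). The limits of the rule together placed the N+PD30 mean above the Nutlin mean in every member, with a smallest log2 difference of 0.30. The choice of members thus enters the count of 222, and the count of 207 shares N+PD30 with the rule.

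**Figure D1:**
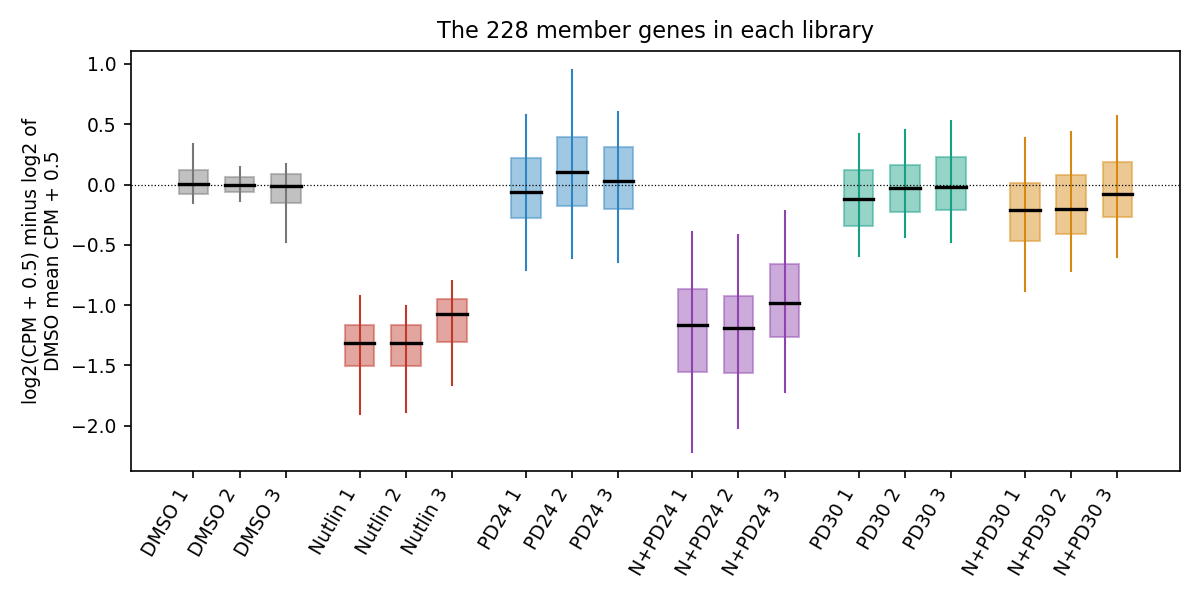
Distribution of the 228 members in each of the 18 libraries, as log2(CPM + 0.5) minus the log2 of the gene's DMSO mean + 0.5. Black lines are medians, boxes span the 25th to 75th percentile and vertical lines the 5th to 95th percentile. The Nutlin and N+PD24 libraries have medians between -1.32 and -0.98, and the other libraries between -0.21 and 0.11.

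Membership depended on which libraries were averaged. The rule found 284 genes without replicate 1 of the 4 groups, 216 without replicate 2 and 250 without replicate 3. Of the 228 members, 167, 183 and 157 were among these. In the replicate that had been left out, the genes found from the other two were lower in Nutlin than in DMSO by a median of 1.15, 1.38 and 0.89 on the log2 scale. The median of N+PD30 minus PD30 there was -0.36, -0.19 and -0.01. In replicate 1, 156 of the 284 genes fell under the limit of -0.3 in this difference, whereas 20 of 250 did so in replicate 3. The lowering by Nutlin was seen again in each left-out replicate. With Palbociclib present, the genes stayed near PD30 in replicate 3 and lay lower in replicate 1.

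Transcript base composition moved with N+PD30 minus PD30, the last limit of the rule. Over all genes with at least 2 CPM in DMSO, N+PD30 minus PD30 had a median of -0.40 in the lowest and of 0.43 in the highest of 10 bins of equal gene number along the GC content of the transcript. The direction was the same in replicates 1, 2 and 3, with medians of -0.66, -0.26 and -0.31 in the lowest bin and 0.68, 0.32 and 0.30 in the highest. The members had a median transcript GC content of 54.0%, compared with 47.6% for all genes at this level and 44.2% for the Nutlin-lowered genes that were not members. Of the members with a transcript model, 172 lay in the upper 5 bins and 54 in the lower 5. When each difference was centred within the GC bins, an alternative chosen after seeing the data, the rule found 240 genes. Of these, 126 were members (55.3% of the members and 52.5% of the 240), so 102 of the 228 left the set. Nutlin minus DMSO went from -0.37 in the lowest bin to 0.003 in the highest, but the replicates differed in direction. In replicates 1, 2 and 3 it was -0.20, -0.43 and -0.52 in the lowest bin. It was -0.62, 0.13 and 0.42 in the highest, so replicate 1 ran the other way. In N+PD24 minus PD24 the medians were -0.25 and -0.24 in the lowest and highest bin, where the 3 replicates differed (-0.60, -0.41 and 0.21 in the highest).

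**Figure D2:**
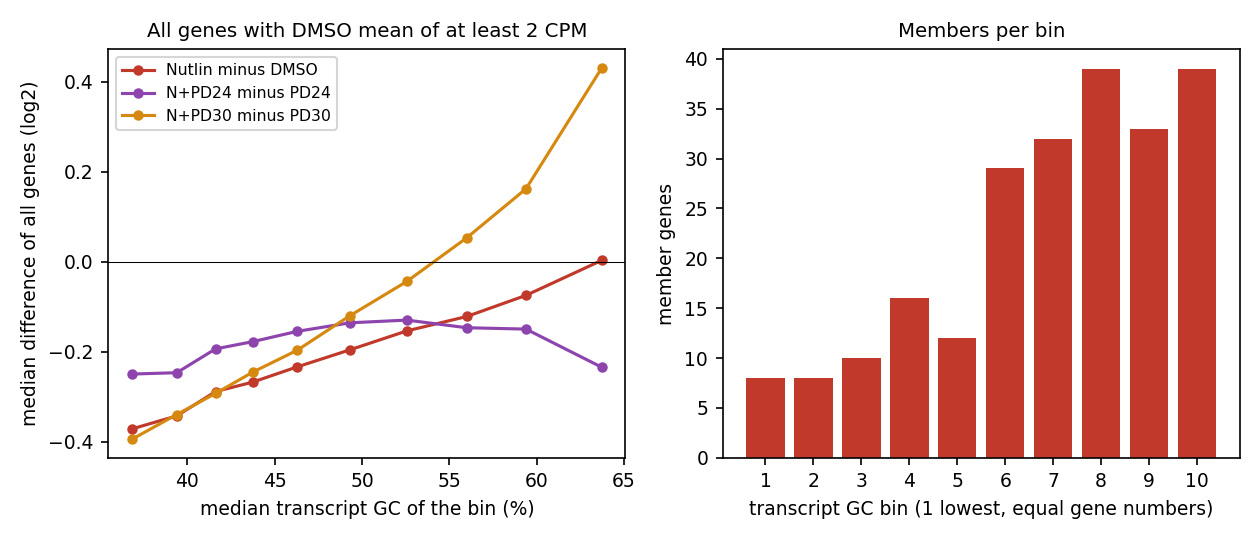
Left, median log2 difference of all genes with a DMSO mean of at least 2 CPM in 10 bins of transcript GC content (x axis, median GC of the bin in %), for each Nutlin comparison. Right, number of members in each bin. N+PD30 minus PD30 rose from -0.40 to 0.43 along the bins, and the members increased from 8 in the lowest bin to 39 in the highest.

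The libraries of PD24 and N+PD24 took no part in the rule. They asked whether the members responded to Nutlin once Palbociclib was removed. With limma on log2(CPM + 0.5), 213 of the 228 members were lower in N+PD24 than in PD24 at a Benjamini-Hochberg adjusted p below 0.05 over all genes, and 0 were higher. By the same test 3935 of 13559 genes (29.0%) were lower and 1200 (8.85%) higher. With the replicate number as a block, 220 members were lower, beside 5167 of all genes (38.1%) lower and 2011 (14.8%) higher. The members had a median log2 fold change of -1.15 (range -2.61 to -0.16), compared with -0.14 over all genes tested. A fall of more than 2-fold was called for 160 members (70.2%), compared with 8.57% of all genes. Every N+PD24 library was below every PD24 library in 213 members, against 36.2% of genes tested. Of the 228 members, 202 were called lower whichever of the 6 libraries was left out.

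This response was not particular to the members. Among the Nutlin-lowered genes that were no members, 988 of 1102 tested (89.7%) were also lower in N+PD24, with a median of -1.11. Among the 434 genes that met every limit but stayed lower in N+PD30, 421 were lower (97.0%), with a median of -1.19. What separated the members from these 434 genes was the value in N+PD30 by which they had been chosen. The other Nutlin-lowered genes were left out by the PD30 limit, with 606 lower and 71 higher in PD30 by 0.5 or more. PD24 itself was close to the controls, with a median PD24 minus DMSO difference of 0.05, lower in 100 members (43.9%) and higher in 128. Of all genes with at least 2 CPM in DMSO, 52.8% were lower in PD24. N+PD24 minus N+PD30 had a median of -0.96 and was below 0 in 224 members (98.2%). It was below 0 in 87.1% of the 434 genes and in 63.6% of all genes with at least 2 CPM in DMSO. That difference shares N+PD30 with the rule and was not tested.

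The scaling moved the split of all genes more than the number of members called lower. With CPM as such, 76.6% of the genes called in N+PD24 against PD24 were lower. The share was 66.3% with TMM scaling, 56.4% with edgeR and 56.1% with DESeq2 on the reads, and the median of all genes moved from -0.14 to -0.05, 0.02 and 0.02. The median of the members was -1.06 with TMM and -1.05 with edgeR and DESeq2, and 212, 209 and 211 members were called lower. A fall of more than 2-fold was called for 133, 128 and 129 members with TMM, edgeR and DESeq2, fewer than the 160 with CPM as such, and for 6.82%, 6.85% and 6.90% of all genes. Members called lower by limma, with TMM, with edgeR, with DESeq2 and with the replicate number as a block numbered 209.

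**Figure D3:**
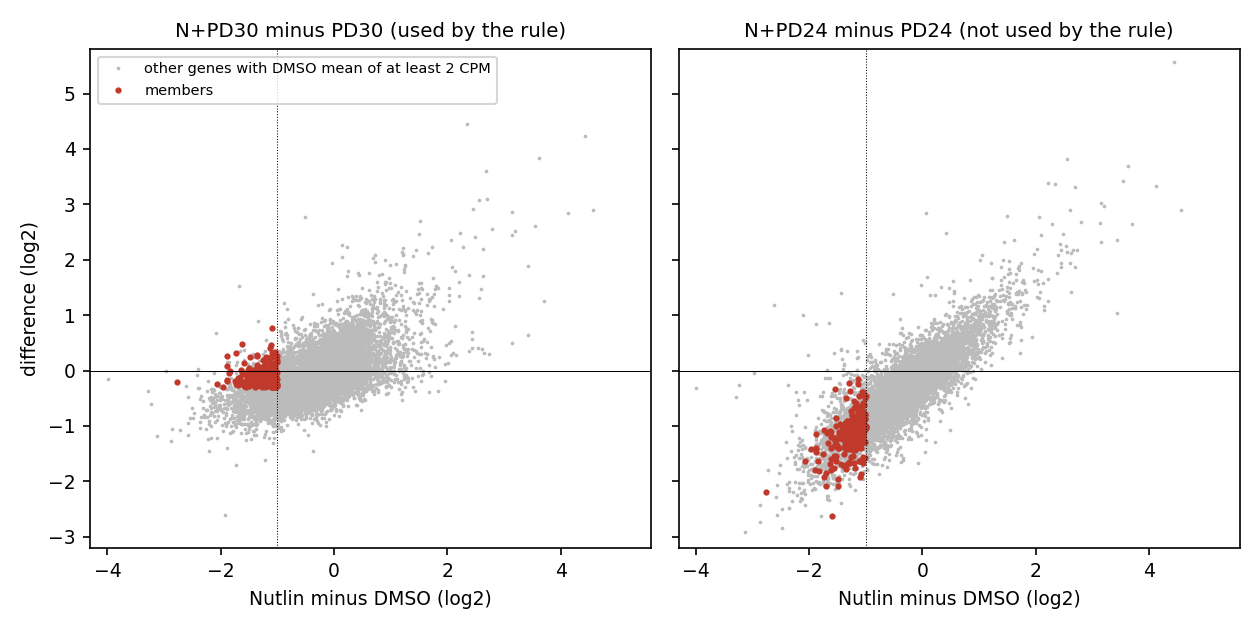
Each point is a gene with a DMSO mean of at least 2 CPM. The x axis is Nutlin minus DMSO, the y axis N+PD30 minus PD30 (left, used to choose the members) or N+PD24 minus PD24 (right, not used), all in log2 units, with members in red. At the left the members lie between -0.30 and 0.77 by construction, and at the right all 228 lie below 0.

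Zinc-finger genes were the most frequent family. These proteins mostly bind DNA through arrays of C2H2 fingers, and many carry a KRAB domain that recruits a repressor complex. ZNF symbols made up 30 of the 228 members (13.2%) and 391 of the 12210 genes with at least 2 CPM in DMSO (3.20%). Lowering by Nutlin was frequent across the family, and reached -1 in 141 of the 391 (36.1%), compared with 11.0% of all genes at this level. Of those 141, 30 were members (21.3%), beside 17.0% of all Nutlin-lowered genes. In N+PD24 against PD24, 306 of 426 tested ZNF genes were lower and 16 higher (median -0.94, compared with -0.14 for all genes). Of the 30 ZNF members 29 were lower. The log2 differences of group means ran from -2.08 to -0.39 over the 30 (median -1.37), and ZNF503, at -0.39, was the one that did not pass.

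ZNF697 had 11.5, 11.5 and 14.5 CPM in DMSO and 2.88, 2.43 and 2.51 in Nutlin. In PD30 it had 8.51, 10.2 and 10.9 CPM, and in N+PD30 it had 6.06, 7.43 and 11.4, so that these groups overlapped. It had 24.1, 18.1 and 22.7 CPM in PD24 and stood at 5.94, 5.66 and 8.38 in N+PD24. The N+PD24 libraries were all below the PD24 libraries (log2 fold change -1.64 ± 0.18 SE, adjusted p = 0.000261). PD24 of this gene was itself raised, with a PD24 minus PD30 difference of 1.09, and N+PD24 overlapped with N+PD30. The fold change therefore also holds the higher PD24 level. ZNF584 went from 10.8, 13.1 and 12.1 CPM in DMSO to 2.49, 3.46 and 2.95 in Nutlin, and it had 13.0, 16.5 and 16.6 CPM in N+PD30. In N+PD24 it had 2.42, 3.17 and 2.85 CPM, compared with 9.85, 10.5 and 8.95 in PD24 (log2 fold change -1.63 ± 0.15 SE, adjusted p = 0.000133). ZNF324B, among the largest falls in N+PD24, had 0.984, 1.27 and 1.34 CPM there and 6.18, 7.38 and 6.51 in PD24 (log2 fold change -2.09 ± 0.16 SE, adjusted p = 6.46e-05). The most abundant ZNF members were ZNF768, ZNF740, ZNF282 and ZNF346, at DMSO means of 33.6, 31.9, 27.0 and 26.7 CPM. All 4 fell in N+PD24, by 1.17, 1.71, 1.21 and 0.99 on the log2 scale.

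Outside this family, the transcription regulators among the members were of several kinds. ZBTB34, a zinc-finger protein with a BTB domain, had a mean of 22.0 CPM in DMSO, 7.33 in Nutlin and 18.8 in N+PD30, and it fell in N+PD24 by 1.55 ± 0.20 SE (log2). ZSCAN23, at 3.28 CPM in DMSO, fell there by 1.01. Of 51 tested ZBTB, ZSCAN and ZKSCAN genes, 32 were lower in N+PD24 and 3 higher. The members of the clock list were PER1, which represses its own activators CLOCK and BMAL1, and NFIL3, a repressor that acts on clock output genes. Of that list 10 of 20 tested genes were lower and 0 higher. PER1 had 12.1, 9.09 and 7.95 CPM in DMSO, 2.92, 3.36 and 3.10 in Nutlin, and 6.77, 9.24 and 9.97 in N+PD30. In N+PD24 it had 0.779, 1.71 and 2.09 CPM, compared with 7.20, 9.40 and 7.73 in PD24. Each N+PD24 value was thus below each PD24 value and also below each Nutlin value (log2 fold change against PD24 -2.14 ± 0.26 SE, adjusted p = 0.000391). NFIL3 stood at 22.5, 23.8 and 22.9 CPM in DMSO and 9.86, 6.63 and 7.81 in Nutlin, and it fell in N+PD24 by 0.96 ± 0.15 SE on the log2 scale. Its PD30 minus DMSO difference was -0.42, and each PD30 library was below each DMSO library. NR4A1, an orphan nuclear receptor induced early after many stimuli, was the member of the immediate-early list. It had 9.36, 7.59 and 7.98 CPM in DMSO, 2.56, 3.06 and 2.95 in Nutlin and 3.15, 5.21 and 5.96 in N+PD30. Its PD30 minus DMSO difference was -0.46, with each PD30 library below each DMSO library, and its N+PD30 minus PD30 difference was -0.28. Its fall in N+PD24 was 0.99 ± 0.23 SE (log2, adjusted p = 0.00878). Of 19 tested immediate-early genes 12 were lower there and 2 higher.

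SETD1A and KDM6B were the members on the list of lysine methyltransferases and demethylases. SETD1A is the catalytic subunit of a complex that methylates lysine 4 of histone H3, and KDM6B (JMJD3) removes methyl groups from lysine 27. SETD1A had 37, 35.6 and 33.2 CPM in DMSO, 11.6, 14.0 and 19.1 in Nutlin, and 27.7, 29.5 and 35.2 in N+PD30. It fell from 26.4, 34.4 and 31.9 CPM in PD24 to 6.80, 8.91 and 12.6 in N+PD24 (log2 fold change -1.69 ± 0.21 SE, adjusted p = 0.00046). KDM6B stood higher in PD24 (26.8, 27.9 and 26.2 CPM) than in DMSO (18, 14.5 and 11.8). In N+PD24 it had 4.47, 6.85 and 13.7 CPM, a wide spread that nonetheless did not reach the PD24 values (log2 fold change -1.77 ± 0.32 SE, adjusted p = 0.00266). Of 48 tested methyltransferases and demethylases of lysine, 28 were lower in N+PD24 and 1 was higher.

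Mediator, the complex that links transcription factors to RNA polymerase II, contributed MED9, MED10 and MED17. MED9 had 18.9, 19.4 and 21.8 CPM in DMSO and 6.03, 6.89 and 7.37 in Nutlin. It stood at 17.7, 14.1 and 15.7 CPM in N+PD30, and at 3.69, 4.47 and 5.27 in N+PD24, against 17.7, 18.3 and 20.1 in PD24 (log2 fold change -1.96 ± 0.16 SE, adjusted p = 7.58e-05). MED10 and MED17 changed less, by -0.89 ± 0.14 SE and -1.03 ± 0.12 SE. Exons of MED17 overlap those of TAF1D on the opposite strand and small RNA genes on its own strand. Reads of the overlap on its own strand cannot be told apart. Whether those of TAF1D can be depends on whether the kit keeps strand, which is not given. Nutlin minus DMSO was -1 or below in 5 of 32 Mediator genes, and in N+PD24 16 of the 32 were lower and 0 higher. No KLF or SP factor, CLK kinase or SR protein, elongation factor, BMP, TGF-beta or Notch effector or cell cycle gene of the lists was a member. In these lists 8 of 18, 17 of 28, 18 of 34, 8 of 25 and 10 of 30 tested genes were lower in N+PD24, and 0, 0, 1, 2 and 3 were higher. The cell cycle genes had a median PD30 minus DMSO difference of -4.76, past the limit set for members. Of 488 tested antisense, LINC and LOC symbols, 58 were lower and 136 higher. The members among them were LOC550112, LOC493754, LOC100859930 and LOC400043, and they fell by between 1.08 and 1.27 on the log2 scale.

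**Figure D4:**
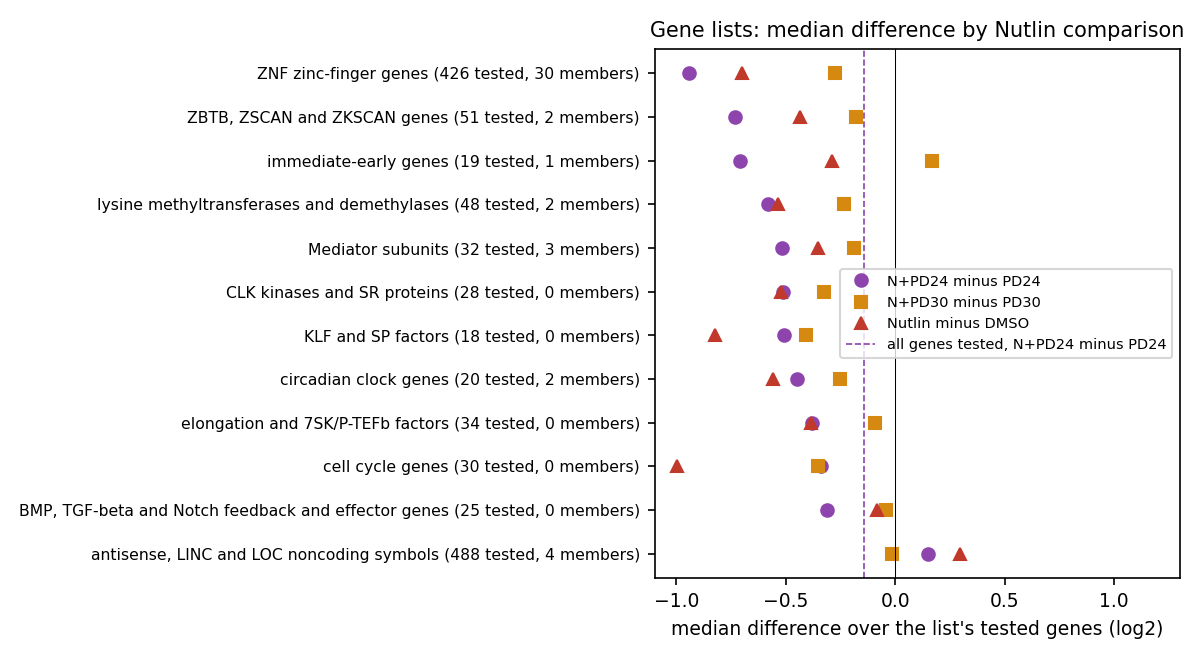
Median log2 difference over the tested genes of each list, for Nutlin minus DMSO (triangles), N+PD30 minus PD30 (squares) and N+PD24 minus PD24 (circles), with the numbers of tested genes and members beside the list names. The dashed line marks the median of all genes tested in N+PD24 minus PD24, -0.14, and of the lists plotted the ZNF genes have the lowest circle at -0.94. The HOX genes, a group picked later with a median of -1.07, are not plotted.

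The member that Nutlin lowered furthest was C12orf68, now CCDC184, an intronless coiled-coil gene of unclear function at chr12:48577427-48579709 (GRCh37). It had 35.6, 29.8 and 16.8 CPM in DMSO and 4.29, 3.6 and 2.95 in Nutlin, which left 13.2% of the mean. In N+PD30 it had 34.3, 38.2 and 22.7 CPM, or 86.8% of its PD30 mean. It had 37.2, 39.9 and 23.7 CPM in PD24 and 6.68, 7.63 and 6.61 in N+PD24 (log2 fold change -2.16 ± 0.20 SE, adjusted p = 0.000125). Replicate 3 was the lowest in each group, and no Nutlin or N+PD24 value reached a value of the other groups. ASB8, which lies next to it on the opposite strand (chr12:48541572-48574996, GRCh37) and encodes a substrate receptor of cullin ubiquitin ligases, was the most abundant member. It had 242, 261 and 268 CPM in DMSO, 114, 100.45 and 115 in Nutlin, and 199.9, 219 and 238 in N+PD30. Each N+PD30 library of ASB8 was below each PD30 library, with an N+PD30 minus PD30 difference of -0.29. In N+PD24 it had 122, 92.6 and 106 CPM, compared with 230.04, 223 and 252 in PD24 (log2 fold change -1.14 ± 0.12 SE, adjusted p = 0.000219).

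TIGD5, a gene derived from a transposable element and encoded by 1 exon, had the largest fall of all members in N+PD24. It had 7.13, 11.1 and 5.20 CPM in PD24 and 0.41, 1.00 and 1.12 in N+PD24 (log2 fold change -2.61 ± 0.30 SE, adjusted p = 0.000302). In Nutlin it had 0.721, 1.63 and 1.25 CPM against 5.54, 5.17 and 3.20 in DMSO. Its exons overlap those of EEF1D and of PYCR3, itself a member under the name PYCRL, on the opposite strand.

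MAPK7, among the members lowered most by Nutlin, and FZD2, among the most abundant, each fell in N+PD24. MAPK7 (chr17:19281034-19286857, GRCh37) encodes ERK5, the kinase at the end of the MEK5 pathway. It had 26.7, 21.7 and 20.5 CPM in DMSO, 3.97, 5.83 and 7.59 in Nutlin and 17.1, 17.9 and 20.2 in N+PD30, where the mean was 106% of PD30. It fell from 19.0, 23.7 and 18 CPM in PD24 to 4.63, 5.01 and 6.68 in N+PD24 (log2 fold change -1.81 ± 0.18 SE, adjusted p = 0.00015). Its exons overlap those of B9D1 and MFAP4 on the opposite strand. FZD2, a Wnt receptor encoded by 1 exon, had 115, 87.6 and 79.5 CPM in DMSO and 24.7, 40.9 and 44.4 in Nutlin. In N+PD30 it had 96.8, 87.7 and 69.2 CPM, and it fell from 77.2, 109 and 81.2 in PD24 to 24.9, 35.1 and 39.7 in N+PD24 (log2 fold change -1.42 ± 0.20 SE, adjusted p = 0.000689). Of the remaining members that Nutlin lowered most, RASSF7, C7orf46, C6orf136, MID1IP1, ALKBH4 and MOB3C had DMSO means from 5.29 to 17.4 CPM and kept between 19.3% and 25.1% of them in Nutlin. They fell in N+PD24 by between 1.13 and 1.80 on the log2 scale.

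**Figure D5:**
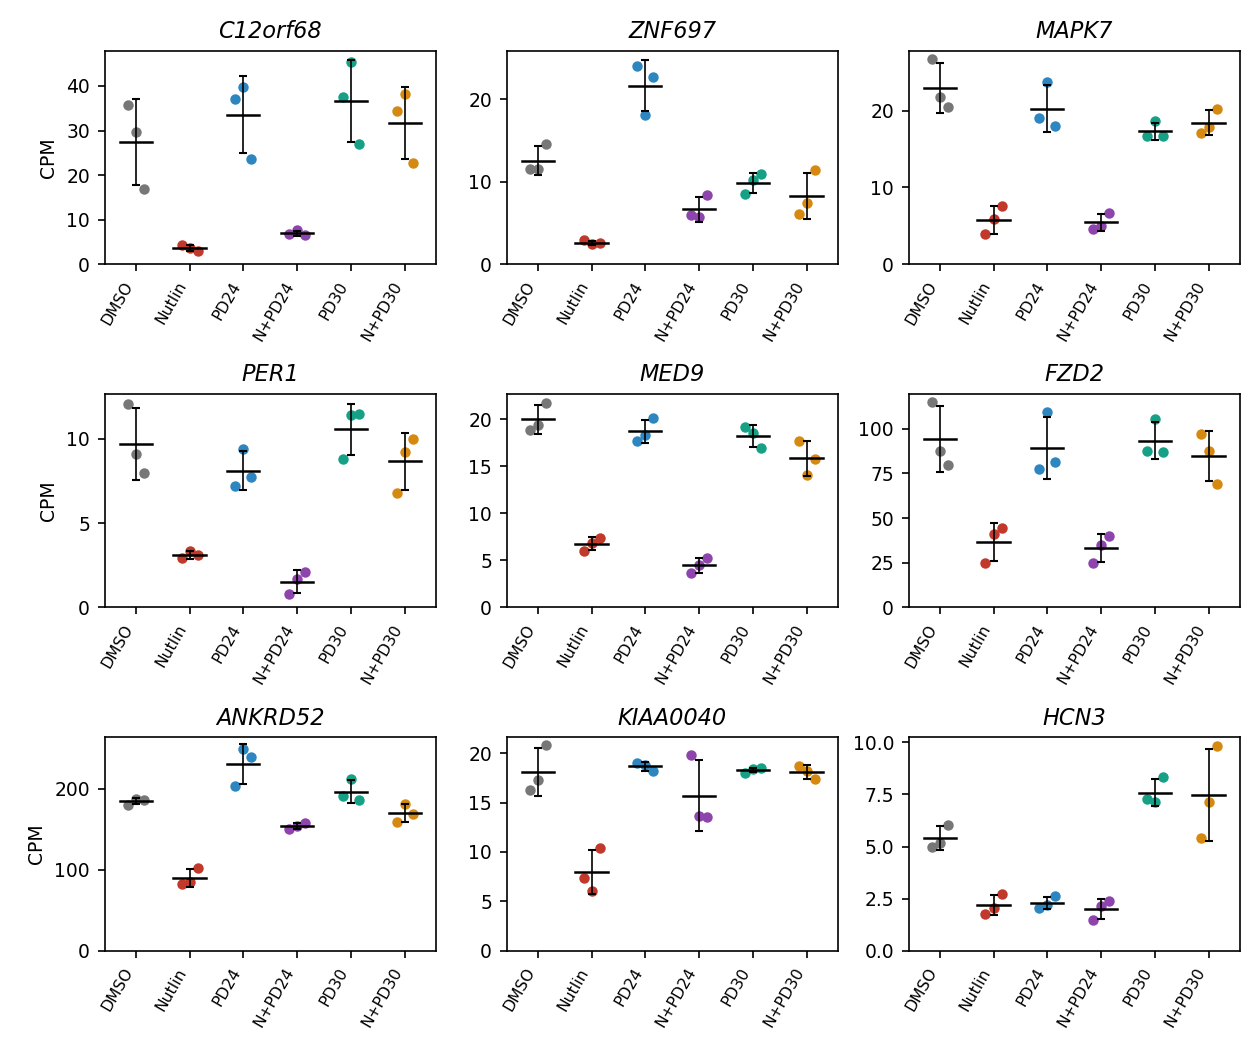
Expression in CPM of 9 members in the 6 groups. Points are the 3 replicates, horizontal lines the mean and error bars the SD. In the upper and middle rows both Nutlin and N+PD24 lie below the other groups, except that N+PD24 overlaps N+PD30 in ZNF697. In ANKRD52 the fall in N+PD24 is smaller than in Nutlin, in KIAA0040 one N+PD24 value exceeds all PD24 values, and in HCN3 the PD24 libraries lie below those of DMSO and PD30.

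Some of the most abundant members fell less in N+PD24. ANKRD52, a regulatory subunit of protein phosphatase 6, had 81.7, 84.5 and 102 CPM in Nutlin against 179.8, 188 and 186 in DMSO. It had 149.7, 153 and 158 CPM in N+PD24 against 203, 249 and 239 in PD24 (log2 fold change -0.58 ± 0.11 SE, adjusted p = 0.00328). GOSR2, a SNARE of the Golgi, fell in N+PD24 by 0.70 ± 0.13 SE (adjusted p = 0.0027) and kept 61.8% of its PD24 mean, whereas it kept 47.5% of its DMSO mean in Nutlin. In ANKRD52 and GOSR2 each N+PD30 library was below each PD30 library, with N+PD30 minus PD30 differences of -0.21 and -0.15. FAM13B kept 73.2% of its PD24 mean and did not pass the test without pairing (adjusted p = 0.0582; 0.00161 with the replicate number as a block). Among trafficking genes, the TBC domain proteins that inactivate Rab GTPases gave 4 members, TBC1D10B, TBC1D13, TBC1D24 and TBC1D25, a group noticed in the values. All 4 fell in N+PD24, by 1.04, 0.77, 1.14 and 1.03 on the log2 scale, whereas 9 of 26 tested TBC1D genes were lower. The ubiquitin ligases TRIM23, TRIM27 and TRIM39, also picked afterwards, fell by 1.25, 1.06 and 1.19, and 22 of 43 tested TRIM genes were lower and 5 higher.

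Homeobox genes of the HOX clusters, a group likewise picked after the values were seen, gave 6 members of the 25 HOX genes with at least 2 CPM in DMSO. These were HOXA11, HOXB3, HOXB5, HOXB6, HOXC6 and HOXC12, which set positional identity along the body axis and limbs. HOXC6, the most abundant of them, had 16.2, 13.4 and 14.5 CPM in DMSO, 5.96, 5.66 and 7.63 in Nutlin, and 9.84, 10.0 and 7.84 in N+PD30. Its PD30 minus DMSO difference was -0.38 and its N+PD30 minus PD30 difference -0.26. Each of its N+PD30 libraries was below each PD30 library. In N+PD24 it had 7.05, 6.44 and 6.54 CPM against 13.0, 15.3 and 15.6 in PD24 (log2 fold change -1.07 ± 0.14 SE, adjusted p = 0.000503). The other 5 fell by between 0.89 and 1.52 on the log2 scale. Over the clusters 24 of 29 tested HOX genes were lower in N+PD24 and 0 were higher, with a median of -1.07. Exons of HOXB3 and HOXB6 overlap each other, and those of HOXC6 overlap HOXC4 and HOXC9. Antisense transcripts run through HOXA11, HOXB3, HOXB5, HOXB6 and HOXC6. These values may therefore not be separate measurements of single genes.

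Of the 228 members, 15 did not pass the test in N+PD24 against PD24, and all 15 had a log2 fold change below 0. With the replicate number as a block 8 did not pass. The 7 that then passed were FAM13B, PTGS2, NFATC4, DNAJB5, NPY1R, FAM46B and SLC43A1, of which the last 3 were named after their values were seen (adjusted p = 0.0241, 0.0115 and 0.0172 with the block). HCN3, a pacemaker channel subunit, had 4.97, 5.17 and 6.04 CPM in DMSO, 7.30, 7.12 and 8.35 in PD30, but 2.04, 2.19 and 2.61 in PD24. It stood at 1.48, 2.17 and 2.38 CPM in N+PD24, which overlapped with PD24 (log2 fold change -0.16, 95% interval -0.60 to 0.28, adjusted p = 0.551). P2RX7, an ATP-gated channel, had 4.18, 2.74 and 5.05 CPM in PD24 against 10.5, 11.6 and 12.3 in DMSO, and 3.77, 2.41 and 3.79 in N+PD24 (adjusted p = 0.518). NFATC4, named after its values were seen, and DNAJB5, a heat shock protein 40 family member, had PD24 minus PD30 differences of -1.33 and -1.05. PD24 enters both this difference and the one tested. Without the block, 0 of the 3 members with PD24 minus PD30 of -1 or below were called lower. All 4 members with this difference at 1 or above were called lower. With the replicate block NFATC4 and DNAJB5 passed (adjusted p = 0.0186 and 0.0241). KIAA0040 was of another kind. It had 19.0, 18.8 and 18.2 CPM in PD24 and 19.8, 13.6 and 13.6 in N+PD24, and it passed only without N+PD24 replicate 1 among the alternatives tried (adjusted p = 0.0392). In Nutlin it had 7.41, 6.06 and 10.4 CPM. PTGS2, the inducible cyclooxygenase and named after its values were seen, had a log2 fold change of -0.86 and an adjusted p of 0.0686, and passed with the block (0.00241). GPR183 and FIBIN, at DMSO means of 2.45 and 3.68 CPM, had log2 fold changes of -0.33 and -0.35.

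The members were compact genes. Of the 228, 226 had a gene model in GENCODE on GRCh37, and 221 of these were protein-coding. Their median span was 14822.5 bases, compared with 35678 for all genes with at least 2 CPM in DMSO and 29613 for the other Nutlin-lowered genes. The canonical transcript had a median of 5 exons, compared with 9 and 7. Of the members, 42 (18.6%) had at most 2 exons, compared with 7.07% of all genes at this level and 12.4% of the other Nutlin-lowered genes. N+PD30 minus PD30, a limit of the rule, itself moved with span and exon number over all genes tested. Its median was 0.089 in genes of up to 10 kb and -0.227 in genes of over 100 kb. It was -0.06 in genes of 1 to 2 exons and -0.147 in genes of over 10. The choice of members thus enters this comparison. The fall in N+PD24 varied little with these features, with member medians of -1.26 in genes of 1 to 2 exons and -1.08 in genes of over 10. Exons of 93 members overlapped a gene on the opposite strand and those of 47 a gene on the same strand. The 111 members with neither had a median of -1.16 in N+PD24 against PD24, and 103 of them were lower. A coding gene started within 1000 bases on the opposite strand, pointing away, at 26 members. Of these partners 23 were tested, and 6 were lower and 2 higher in N+PD24, beside 29.0% and 8.85% of all genes tested. By the limit of -1, 0 were Nutlin-lowered, compared with 11.0% of all genes with at least 2 CPM in DMSO. Their median Nutlin minus DMSO difference was -0.20. The partners FAM118B, ZNF174 and MAD2L1BP came nearest to the limit, at -0.975, -0.958 and -0.947. ZXDA, RNF216P1, SDHAP2 and RP9, named after their values were seen, have near-identical copies or pseudogenes and their counts are uncertain.

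Promoter windows of RefSeq (GRCh38.p14, 250 bases before to 50 after a start site) were found for 189 members, 248 windows in all. The windows of 4 members are shown, ZNF697 and ZNF584 from the largest Nutlin falls and PER1 and MED9 from the largest falls in N+PD24, to show the sequence at which their transcription starts. Windows of C12orf68, FZD2 and TIGD5 are not shown. Capitals mark every match to a searched motif on either strand. The window of ZNF697 is chr1:119648217-119648516 on the minus strand, that of ZNF584 chr19:58408399-58408698 on the plus strand, that of PER1 chr17:8152355-8152654 on the minus strand and that of MED9 chr17:17476750-17477049 on the plus strand. Each sequence reads 5′ to 3′ in the direction of transcription.
ZNF697: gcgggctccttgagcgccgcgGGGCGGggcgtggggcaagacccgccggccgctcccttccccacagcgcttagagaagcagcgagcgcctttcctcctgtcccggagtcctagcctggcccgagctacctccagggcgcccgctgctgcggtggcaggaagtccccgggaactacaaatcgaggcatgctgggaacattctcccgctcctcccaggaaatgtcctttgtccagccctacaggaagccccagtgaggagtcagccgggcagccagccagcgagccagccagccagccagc
ZNF584: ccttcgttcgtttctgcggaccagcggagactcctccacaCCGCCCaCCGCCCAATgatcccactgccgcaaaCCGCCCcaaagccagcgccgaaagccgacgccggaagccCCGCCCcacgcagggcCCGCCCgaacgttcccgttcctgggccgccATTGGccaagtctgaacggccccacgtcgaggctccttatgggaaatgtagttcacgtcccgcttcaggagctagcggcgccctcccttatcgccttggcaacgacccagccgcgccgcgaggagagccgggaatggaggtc
PER1: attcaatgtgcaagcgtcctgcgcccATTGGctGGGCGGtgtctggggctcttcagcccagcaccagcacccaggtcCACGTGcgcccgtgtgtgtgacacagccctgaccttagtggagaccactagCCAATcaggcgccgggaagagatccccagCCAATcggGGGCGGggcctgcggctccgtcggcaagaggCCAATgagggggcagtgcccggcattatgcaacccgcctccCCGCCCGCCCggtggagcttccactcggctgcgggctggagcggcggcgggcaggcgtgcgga
MED9: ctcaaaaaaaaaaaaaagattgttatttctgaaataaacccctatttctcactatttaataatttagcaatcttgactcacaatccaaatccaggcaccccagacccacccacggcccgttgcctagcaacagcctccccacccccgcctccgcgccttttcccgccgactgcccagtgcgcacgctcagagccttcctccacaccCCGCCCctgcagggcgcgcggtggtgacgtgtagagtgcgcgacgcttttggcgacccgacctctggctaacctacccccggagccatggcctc

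In these windows the SP/KLF word GGGCGG was found once in ZNF697 and MED9, at 5 positions in ZNF584 and at 4 in PER1, where 2 of them overlap. The NF-Y word CCAAT was found at 2 positions in ZNF584 and 4 in PER1, and the E-box CACGTG at 1 position in PER1. Over all member windows, GGGCGG was present in 177 of 248 (71.4%), compared with 66.2% of windows of genes with at least 2 CPM in DMSO. CCAAT was present in 35.5% and 34.9%, CACGTG in 11.3% and 9.37%, the ETS word CCGGAAGT in 8.06% and 7.41% and the CRE word TGACGTCA in 3.23% and 2.89%. The words of cell cycle promoters were also near the background. TTTGAA, the CHR element, was present in 8.47% and 10.5%, and TTTCGCGC or TTTGGCGC, words of E2F sites, in 2.42% and 1.79%. For TATAAA the shares were 3.23% and 6.25%, for the NRF1 consensus 0.806% and 1.95%, and for the YY1 consensus 1.61% and 1.75%. Over all 22450 windows GGGCGG was present in 56.1%, CCAAT in 34.8%, CACGTG in 8.38%, CCGGAAGT in 5.32% and TGACGTCA in 2.29%. There TTTGAA was present in 12.5%, the E2F words in 1.47%, TATAAA in 9.36%, the NRF1 consensus in 1.52% and the YY1 consensus in 1.17%. Promoter GC content was also close, with medians of 66.0% in members and 65.0% in the genes at this level.

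Genes at the limits of the rule differed little from their neighbours outside. The Nutlin minus DMSO difference was -1.0014 and -1.002 in the members DNAJB5 and TBC1D10B, and -0.998 and -0.9976 in ATXN7L3 and TUBE1, which were left out. N+PD30 minus PD30 was -0.30 in the members FBXO31 and ZNF16 and in CYP2R1 and HDX, which lay just outside. The PD30 limit separated OSBPL11 and ZNF527, at an absolute difference of 0.4992, from GEM and ATF4 at 0.5011 and 0.5012. The DMSO limit of 2 CPM separated TMEM86A and ZNF224, at 2.12 and 2.40 CPM, from KCNJ8 and ZNF391 at 1.85 and 1.31.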

How the data were processed

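RNA of 18 SJSA-1 samples was sequenced. The authors mapped reads to hg19 with TopHat and Bowtie2 and counted them per gene with HTSeq 0.6.0 set to reverse strand. Whether the kit keeps strand is not given in the sources used here. The deposited values are read counts, except that the authors deposited N+PD24 as a signal in which each library's counts had been divided by a constant. Whole reads were recovered for 100% of those values (within 0.01), and all libraries were scaled to CPM by their own totals. Normalized base mean tables and the authors' Nutlin against DMSO statistics were not used, and 0 sample columns were left unmapped. The labels give 20 µM Nutlin, and the study's scheme of this sequencing experiment writes a lower dose beside it.

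N+PD24 was compared with PD24 by limma 3.58.1 (trend) in R 4.3.3 on log2(CPM + 0.5), for the 13559 genes with a mean of at least 1 CPM over 18 libraries, at a Benjamini-Hochberg adjusted p of 0.05. All 228 members passed this filter. The test was chosen because the N+PD24 values are not counts as deposited. Alternatives were a pseudocount of 1, no filter or 5 CPM, TMM, edgeR 4.0.16 and DESeq2 1.42.0 on the reads, a replicate block, leaving out each library, and other limits of the rule. The script was tested on simulated data. Same-numbered PD24 and N+PD24 libraries deviated together (r = 0.53, 0.66 and 0.23 over 10892 genes). Between unlike numbers r ran from -0.56 to 0.19, the latter close to the value of replicate 3. The replicate block took the numbers to pair the samples, whereas the main test did not use a pairing. The study describes the sequenced samples as biological triplicates, whereas the labels do not say that replicates were separate cultures. The p-values measure the spread between these samples.

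Named members were the 10 lowest in Nutlin minus DMSO with at least 5 CPM, the 5 most abundant, up to 4 per list, the 5 largest and 5 smallest falls in N+PD24 against PD24, and those at the limits. The members, lists and rules were chosen with earlier results of these data known. Symbols were matched to GENCODE v44 on GRCh37 and to RefSeq.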

Additional observations from a re-analysis of the deposited data

How the results depend on the processing

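In N+PD24 against PD24, the members called lower numbered 213, and between 179 (of 186 tested, at 5 CPM) and 220 (replicate block) under the other settings. The replicate block paired libraries by number and called 5167 genes lower and 2011 higher, against 3935 and 1200 without it. Genes called higher over the whole table were 2515 with no filter on low values, 680 at 5 CPM, 2128 with edgeR and 2242 with DESeq2. Leaving out each library in turn gave 783 to 1237 genes called higher, 2765 to 3657 lower, 3548 to 4793 in all, 206 to 216 members called and member medians from -1.26 to -1.11. The count of higher genes was 783 without N+PD24 replicate 2. The rule itself found 216 to 284 genes with 1 replicate left out, 274 with TMM and 207 with 1 CPM added. It found 37 genes at a Nutlin limit of -1.5, 132 at a PD30 limit of 0.25 and 58 at an N+PD30 limit of 0, where tighter limits keep fewer genes by construction. Of the 66 members named, 820 values under other settings kept direction and call. HCN3 ranged from -0.2712 to 0.0015 with 1 library left out (0.0015 without N+PD24 replicate 1). Outside the members GEM ranged from -0.577 to 0.0574 (0.0574 without PD24 replicate 3 and 0.0426 without N+PD24 replicate 2). HOXB3 lost its call without PD24 replicate 2, PD24 replicate 3 or N+PD24 replicate 2 (adjusted p = 0.0554, 0.0575 and 0.054, limma). FAM13B passed without PD24 replicate 2 or N+PD24 replicate 3 (0.0299 and 0.04), NFATC4, NPY1R and SLC43A1 without N+PD24 replicate 3 (0.0494, 0.0216 and 0.0256), FAM46B without PD24 replicate 3 or N+PD24 replicate 2 (0.0212 and 0.0391), and PTGS2 without PD24 replicate 2 or N+PD24 replicate 1 (0.0323 and 0.0387). FAM13B, DNAJB5, NFATC4, PTGS2, NPY1R, FAM46B and SLC43A1 gained one with the block, which changed no other call among the named members. The cause of these changes was not tested. The 3 replicates per group limit the size of difference that can be called, and members near 2 CPM rest on the fewest reads.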
